A study of Schizosaccharomyces pombe with 6 samples.

Results

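The 10 mRNAs of core glycolysis in fission yeast, *pgi1*, *pfk1*, *fba1*, *tpi1*, *tdh1*, *gpd3*, *pgk1*, *gpm1*, *eno101* and *pyk1*, were followed in pull-downs of the lncRNA *aal1* (ChIRP-seq). They were chosen by their systematic identifiers and not by a cut on their counts, but with earlier results of these data known. They are 10 of the 7001 genes in the count table, and 10 of its 5111 nuclear mRNAs. Biotinylated DNA oligos antisense to *aal1* were used to recover *aal1* with any RNA attached to it from cross-linked *Schizosaccharomyces pombe* cells on Day 6 of stationary phase in EMMG, a minimal medium. There were 6 libraries, 2 for each of 3 strains, and the strains were compared to ask which RNAs came down with *aal1*.

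Wild-type cells (wt) were of strain 972h-. The *aal1-pOE* cells carried a plasmid with *aal1* behind the thiamine-repressible P41nmt1 promoter in a 972h-/leu1-32 background. In *aal1∆* cells, *aal1* had been removed from 972h- with CRISPR-Cas9, so these pull-downs held what the probes and beads recovered without their target. The study reports that another lncRNA, SPNCRNA.401, overlaps *aal1* on the opposite strand. By its account, a deletion of *aal1* cannot be told apart from one of SPNCRNA.401. No library of cells with an empty plasmid was analysed here, so effects of *aal1* and of the plasmid or the background cannot be told apart in *aal1-pOE*. The study's methods say that the 2 replicates of each strain were grown and processed independently. No library of total RNA was analysed here, so recovery by the probes and the amount of an mRNA in the cells cannot be told apart either.

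Glycolysis splits glucose into pyruvate through a chain of cytosolic enzymes. Its first steps spend ATP on making a doubly phosphorylated hexose, which is then split, and its later steps return ATP and NADH. The mRNAs of these enzymes are among the most abundant of growing yeasts, and in fission yeast the pathway feeds both fermentation and respiration.

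The 6 libraries held 40653 to 175263 counts, with *aal1∆* replicate 2 the smallest and *aal1∆* replicate 1 the largest. *aal1* had 28 and 147 counts in wt, 9540 and 20832 in *aal1-pOE*, and 0 in both *aal1∆* libraries, in accordance with the strain labels. It took 10.4% and 25.3% of all counts in *aal1-pOE*, rRNA took 25.7% to 54.4% of the counts of a library, and nuclear mRNA took 42.4% to 65.6%. Read pairs were not described as collapsed by molecular identifiers. The intervals of single libraries given here take each count as independent and cover counting error at most. They are too narrow where counts are copies of one molecule.

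The pathway has 2 genes for glyceraldehyde-3-phosphate dehydrogenase (GAPDH), the NADH-forming step, and their values cannot be read without their sequences. The coding sequences of *tdh1* and *gpd3* aligned over 1011 columns, of which 940 (93.0%) were identical, and the 2 mRNAs shared a run of 203 identical nucleotides. The run is shown from RefSeq's ASM294v3 assembly with 40 nucleotides on either side, 5′ to 3′, on the plus strand. It lies within the coding sequence of a single exon of each gene, at chrII:2808213-2808415 in *tdh1* and at chrII:579307-579509 in *gpd3*. The windows are chrII:2808173-2808455 and chrII:579267-579549, and capitals mark the 4 positions at which the windows differ.
tdh1: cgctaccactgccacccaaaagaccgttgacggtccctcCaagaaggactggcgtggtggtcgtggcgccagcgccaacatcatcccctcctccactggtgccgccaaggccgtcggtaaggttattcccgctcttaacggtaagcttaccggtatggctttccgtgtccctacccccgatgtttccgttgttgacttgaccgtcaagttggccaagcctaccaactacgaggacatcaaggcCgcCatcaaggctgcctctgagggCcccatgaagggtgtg
gpd3: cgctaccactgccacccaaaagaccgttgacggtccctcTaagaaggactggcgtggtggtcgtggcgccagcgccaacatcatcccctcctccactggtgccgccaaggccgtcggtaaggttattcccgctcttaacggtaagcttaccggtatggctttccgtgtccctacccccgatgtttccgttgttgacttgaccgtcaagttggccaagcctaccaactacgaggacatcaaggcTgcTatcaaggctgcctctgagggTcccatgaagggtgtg
Over the whole mRNAs, 174 of the 1391 stretches of 67 nucleotides in *tdh1* (12.5%) occurred also in *gpd3*, where they were 174 of 1331 (13.1%). Of stretches of 59 nucleotides the shares were 198 of 1399 (14.2%) and 198 of 1339 (14.8%). The trimming in the methods leaves 67 of 75 bases of a read by the mapping command alone, and 59 where molecular identifiers were clipped first, as the methods describe for RNA-seq. A read pair that lies wholly inside such a stretch fits both genes and cannot be assigned to either, so the 2 counts are uncertain as far as the stretches reach. The other 8 mRNAs shared 0 stretches of either length with any other mRNA. The pair of enolase genes is far less alike, since *eno101* and *eno102* were identical at 63.3% of their coding columns and shared a longest run of 18 nucleotides.

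All 10 mRNAs were recovered in every library, the *aal1∆* libraries included. Levels of different genes were compared as CPM, the count scaled to a library's total, per kilobase of transcript, and the values that follow are means over the 6 libraries. The GAPDH mRNA *gpd3* stood first at 3032 ± 657 (SD, n = 6), above *tdh1* at 2408 ± 355 in 5 of 6 libraries. *tdh1* in turn lay above the next mRNA, *eno101*, in 5 of 6 libraries.

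*eno101*, which encodes enolase, was at 1924 ± 223 CPM per kilobase (SD, n = 6), *pgk1*, which encodes phosphoglycerate kinase, at 1901 ± 221, and *fba1*, which encodes the aldolase that splits the hexose, at 1790 ± 105. These 3 could not be ordered: *eno101* was above *pgk1* in 3 of 6 libraries, and *pgk1* above *fba1* in 4 of 6. With coding length in place of transcript length, *pgk1* stood before *fba1* and *eno101*, with the places of the other 7 as before. A gap followed, since *fba1* lay above the next mRNA, *pyk1*, in 6 of 6 libraries.

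*pyk1*, which encodes pyruvate kinase, the last and ATP-yielding step, was at 1003 ± 190 CPM per kilobase, and *gpm1*, which encodes phosphoglycerate mutase, at 775 ± 227 (SD, n = 6 each). *pyk1* was above *gpm1* in 5 of 6 libraries and *gpm1* above *pfk1* in 4 of 6. *pfk1*, which encodes phosphofructokinase, the committing step, was at 527 ± 96.9 and above *pgi1* in 6 of 6 libraries. *pgi1*, the isomerase that turns glucose 6-phosphate into fructose 6-phosphate, was at 343 ± 50.6 and *tpi1*, triose-phosphate isomerase, at 288 ± 206, with *pgi1* above *tpi1* in 4 of 6.

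**Figure D1:**
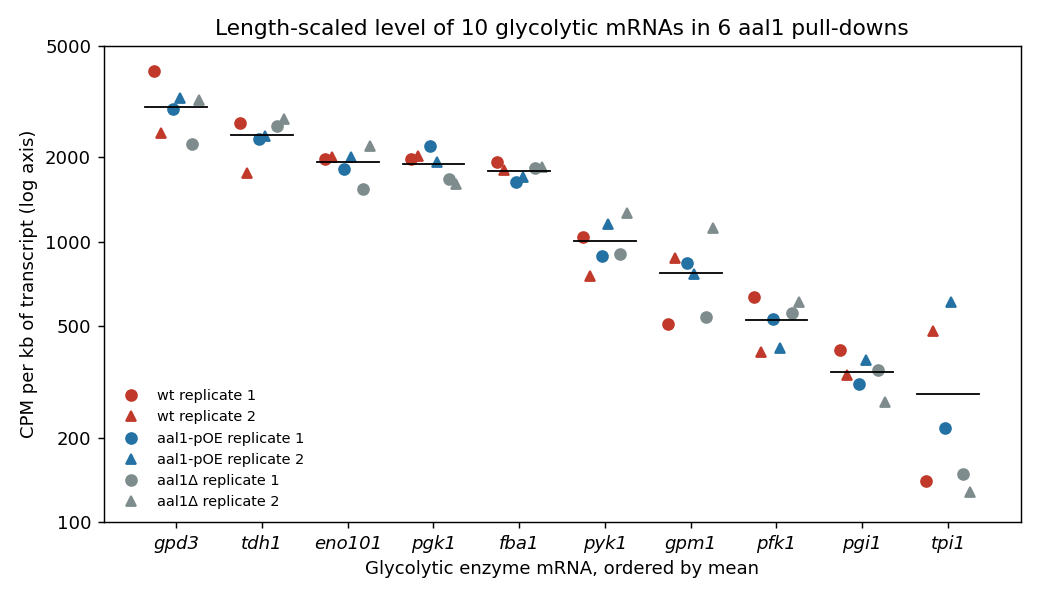
Length-scaled level of each glycolytic mRNA (CPM per kilobase of transcript, log axis) in the 6 pull-down libraries; colours are strains, shapes are replicates and bars are means over the 6 libraries. *gpd3* and *tdh1* lie highest, *fba1* varies least around its mean of 1790, and *tpi1* spreads from 129 to 609.

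Among the 5111 nuclear mRNAs, ranked by CPM per kilobase over all 6 libraries, *gpd3* was 4th, *tdh1* 6th, *eno101* 8th, *pgk1* 9th and *fba1* 10th. *pyk1* was 28th, *gpm1* 41st, *pfk1* 80th, *pgi1* 136th and *tpi1* 162nd. The 10 mRNAs were also GC-rich: their transcripts had a median of 47.7% G and C (42.8% to 50.6%), and all 10 lay above the 95th percentile (42.5%) of the nuclear mRNAs, whose median was 37.2%. Their transcripts were of common length, with a median of 1457 nucleotides against 1681. Runs complementary to the 783 nucleotides of *aal1* were no longer than usual, with 8 to 12 nucleotides in the 10 mRNAs, a median of 11, and the same median of 11 over all nuclear mRNAs.

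Together the 10 mRNAs held 2.35% and 1.91% of all counts in wt, 2.08% and 2.18% in *aal1-pOE*, against 1.90% and 2.26% in *aal1∆*. The exact 95% binomial intervals of these shares spanned 2.25% to 2.45% and 1.82% to 2.01% in wt, and 1.84% to 1.97% and 2.12% to 2.41% in *aal1∆*. Replicates of these strains thus lay further apart than their intervals. In *aal1-pOE* the intervals, 1.99% to 2.18% and 2.08% to 2.28%, overlapped. Strain means were 2.13% ± 0.311 in wt, 2.13% ± 0.0689 in *aal1-pOE* and 2.08% ± 0.253 in *aal1∆* (SD, n = 2 each), and the libraries of the 3 strains overlapped. With 2 libraries against 2, the smallest p that an exact two-sided permutation test allows is 0.333, so no test was run on the sum.

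Of the counts of nuclear mRNA alone, the 10 held 3.58% and 4.51% in wt, 3.86% and 4.80% in *aal1-pOE*, against 3.55% and 4.04% in *aal1∆*, while they made up 0.196% of the mRNA genes. Replicate 2 was the higher on this scale in all 3 strains. The first 4 enzymes, from *pgi1* to *tpi1*, held 21.98% to 26.1% of the summed counts of the 10. The 2 GAPDH mRNAs held 31.3% (wt replicate 2) to 40.6% (wt replicate 1) of it, and *tpi1* 0.544% (*aal1∆* replicate 2) to 2.68% (*aal1-pOE* replicate 2).

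**Figure D2:**
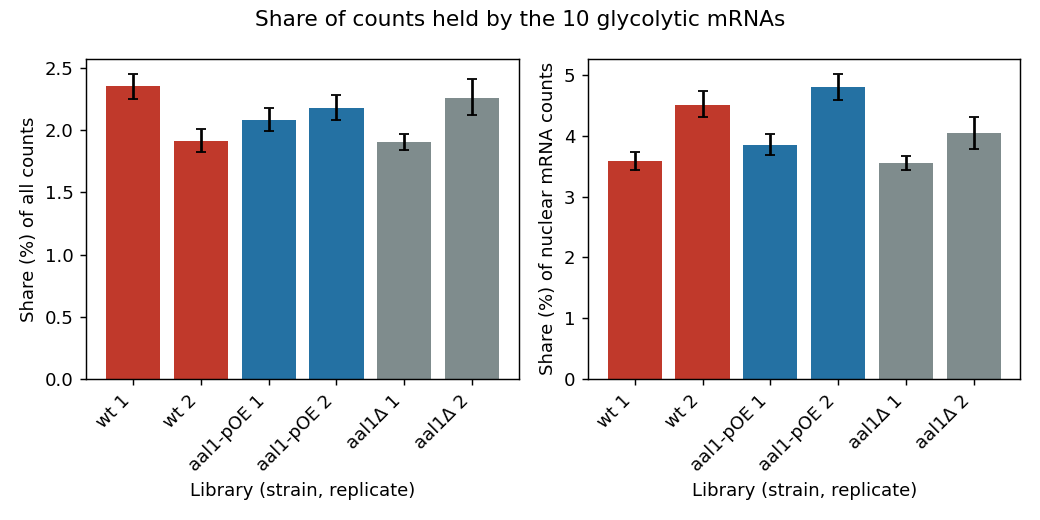
Share of counts (%) held by the 10 glycolytic mRNAs in each library, of all counts on the left and of nuclear mRNA counts on the right, with exact 95% binomial intervals. On the left the strains overlap between 1.90% and 2.35%; on the right replicate 2 is higher than replicate 1 in each strain.

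Strains were compared with edgeR's quasi-likelihood test on the counts of the 1329 RNAs that had enough counts, which all 10 mRNAs did, and p-values were adjusted over those 1329. None of the 10 was called higher or lower: 0 of 10 passed an adjusted p of 0.05 in wt against *aal1∆*, where 0.15% of the tested RNAs passed, 0 of 10 in *aal1-pOE* against *aal1∆* (0.376%), and 0 of 10 in *aal1-pOE* against wt (0.226%). DESeq2 also called 0 of 10 in each comparison. At an unadjusted p under 0.05, edgeR had 0 of 10 in wt against *aal1∆* (2.48% of all tested RNAs), 1 of 10 (*tpi1*) in *aal1-pOE* against *aal1∆* (5.42%), and 0 of 10 in *aal1-pOE* against wt (4.21%). The comparisons share libraries and are not independent of each other.

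The median log2 fold change of the 10 was 0.11 in wt against *aal1∆*, beside 0.00 over all tested RNAs, 0.21 in *aal1-pOE* against *aal1∆*, beside 0.01, and 0.15 in *aal1-pOE* against wt, beside 0.03. In wt against *aal1∆* 6 fold changes were positive and 4 negative, in *aal1-pOE* against *aal1∆* 8 were positive, and in *aal1-pOE* against wt 9 were, but with library sizes alone these were 6, 5 and 5 positive. Single libraries moved these medians: wt against *aal1∆* gave -0.25 without wt replicate 2 and 0.44 without wt replicate 1. *aal1-pOE* against wt gave 0.44 without wt replicate 2 and -0.20 without wt replicate 1.

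**Figure D3:**
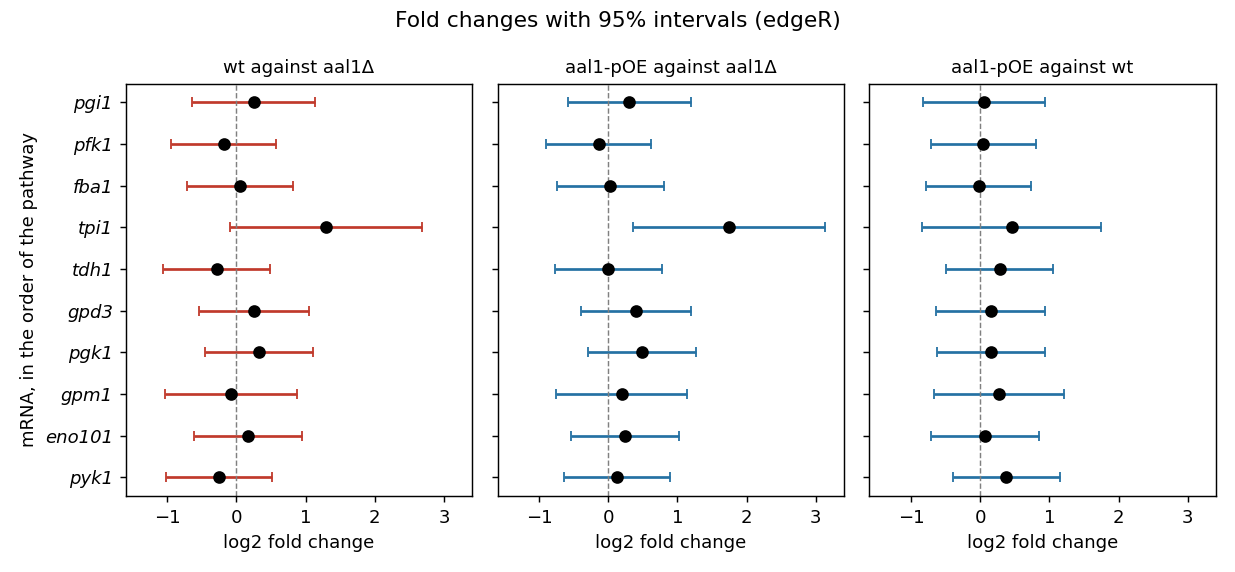
Fold changes (log2) of the 10 glycolytic mRNAs in the 3 comparisons, in the order of the pathway, as edgeR estimates with 95% intervals. All intervals include 0 except that of *tpi1* in *aal1-pOE* against *aal1∆*, which spans 0.36 to 3.13 and has an adjusted p of 0.822.

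Values per library are given from here on as CPM after edgeR's TMM scaling, which compares one mRNA between libraries, and follow the pathway, with coordinates of ASM294v3. *pgi1* (SPBC1604.05, chrII:3921659-3923580, minus strand, 1 exon) had 611 and 790 in wt, 577 and 877 in *aal1-pOE*, against 684 and 466 in *aal1∆*. The strains overlapped. Its log2 fold change was 0.25 ± 0.445 (SE) in wt against *aal1∆* and 0.30 ± 0.446 in *aal1-pOE* against *aal1∆*, with edgeR's adjusted p of 0.9999 in both.

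*pfk1* (SPBC16H5.02, chrII:2297164-2300391, minus strand, 1 exon) had 1582 and 1594 in wt, 1657 and 1622 in *aal1-pOE*, against 1832 and 1776 in *aal1∆*. On the TMM scale it was the steadiest of the 10 between replicates. Both wt and both *aal1-pOE* libraries lay below both *aal1∆* libraries, by a log2 fold change of -0.19 ± 0.382 (SE) and -0.14 ± 0.382, each with an adjusted p of 0.9999 from edgeR. The interval for wt against *aal1∆* ran from 0.519-fold to 1.49-fold. It is wide beside this spread because edgeR rests the spread of one RNA largely on that of all tested RNAs. There were 71.0 prior against 3 residual degrees of freedom. Scaled by library size alone, *pfk1* had 2056 and 1305 CPM in wt, 1719 and 1349 in *aal1-pOE*, against 1803 and 1968 in *aal1∆*. Its steadiness thus belonged to the TMM scale, whose scaling factors were 1.30 and 0.818 in the wt libraries.

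*fba1* (SPBC19C2.07, chrII:1688321-1689599, plus strand, 1 exon) had 1892 and 2821 in wt, 2013 and 2616 in *aal1-pOE*, against 2383 and 2132 in *aal1∆*. The *aal1∆* libraries lay between those of the other strains. The log2 fold changes against *aal1∆* were 0.06 ± 0.384 (SE) for wt and 0.03 ± 0.385 for *aal1-pOE*, and the interval for wt spanned 0.611-fold to 1.77-fold.

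*tpi1* (SPCC24B10.21, chrIII:939913-940869, plus strand, 1 exon), whose enzyme interconverts the 2 triose phosphates made by the aldolase, varied most. Its counts were 12 and 40 in wt, 19 and 48 in *aal1-pOE*, against 25 and 5 in *aal1∆*, which is 103 and 564, 199 and 702, and 145 and 111 after scaling. Replicate 2 of wt and of *aal1-pOE* stood high, while wt replicate 1 was the lowest of the 6 on the TMM scale. Scaled by library size alone, *aal1∆* replicate 2 was the lowest, at 123 CPM beside 134 in wt replicate 1.

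In *aal1-pOE* against *aal1∆* the groups did not overlap, and the log2 fold change of *tpi1* was 1.74 ± 0.694 (SE), with an interval of 1.28-fold to 8.73-fold, an unadjusted p of 0.0142 and an adjusted p of 0.822 from edgeR. In wt against *aal1∆* the groups overlapped, and it was 1.29 ± 0.697 (SE), with an interval of 0.934-fold to 6.40-fold and an adjusted p of 0.9999 from edgeR. Leaving out wt replicate 2 turned the latter to -0.37, and leaving out wt replicate 1 took it to 2.15. Leaving out *aal1-pOE* replicate 2 brought the former to 0.64, and leaving out *aal1-pOE* replicate 1 to 2.41. With the counts of *aal1* at 28 and 147 in wt and at 9540 and 20832 in *aal1-pOE*, the replicate with more *aal1* was in both strains the one with more *tpi1*. Those replicates also had the lower share of nuclear mRNA, at 42.4% against 65.6% in wt and 45.4% against 54.0% in *aal1-pOE*. The part of either in the level of *tpi1* was not tested. On the TMM scale *pgi1*, *fba1*, *tdh1*, *pgk1*, *gpm1*, *eno101* and *pyk1* were also higher in replicate 2 of wt and of *aal1-pOE*, by smaller differences. *pfk1* in *aal1-pOE* and *gpd3* in wt went the other way. Scaled by library size alone, only *tpi1* and *eno101* were higher in replicate 2 of wt and of *aal1-pOE*.

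**Figure D4:**
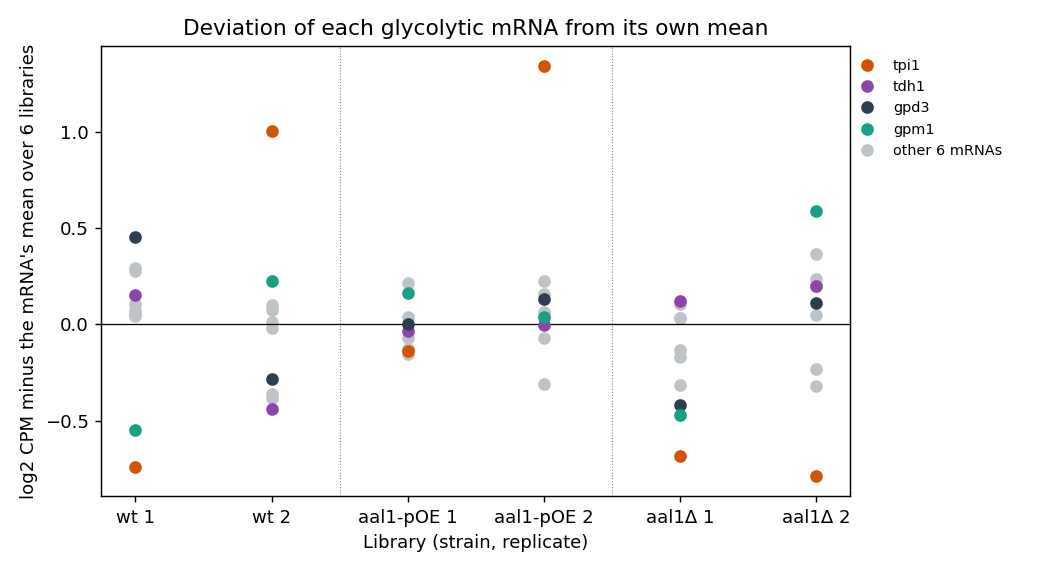
Deviation of each glycolytic mRNA from its own mean (log2 CPM, scaled by library size alone) in the 6 libraries. *tpi1* (orange) lies 1.004 and 1.338 above its mean in replicate 2 of wt and of *aal1-pOE* and below its mean in the other 4 libraries.

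The 2 GAPDH mRNAs come next. *tdh1* (SPBC32F12.11, chrII:2807595-2809051, plus strand, 1 exon) had 2975 and 3132 in wt, 3272 and 4165 in *aal1-pOE*, against 3838 and 3597 in *aal1∆*, so that both wt libraries were below both of either other strain. *gpd3* (SPBC354.12, chrII:578117-580056, plus strand, 2 exons) had 4377 and 4175 in wt, 4016 and 5480 in *aal1-pOE*, against 3160 and 4041 in *aal1∆*, with both wt libraries above both *aal1∆* libraries. In wt against *aal1∆* the log2 fold change was -0.29 ± 0.389 (SE) for *tdh1* and 0.25 ± 0.396 for *gpd3*, each with an adjusted p of 0.9999 from edgeR.

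Since their fold changes differed in sign there, their ratio was taken within each library, a choice made after their values were seen. *gpd3* over *tdh1* was 1.47 and 1.33 in wt, 1.23 and 1.32 in *aal1-pOE*, against 0.823 and 1.12 in *aal1∆*. The lowest ratio, that of *aal1∆* replicate 1, had an exact 95% interval of 0.734 to 0.923 and lay apart from the intervals of the 4 libraries with *aal1*, the nearest of which began at 1.05. The other *aal1∆* library had an interval of 0.904 to 1.40, which overlapped all 4. Strain means were 1.40 ± 0.0974 in wt, 1.27 ± 0.0624 in *aal1-pOE* and 0.973 ± 0.212 in *aal1∆* (SD, n = 2 each), and an exact permutation test of 2 against 2 cannot go below 0.333. When the counts of the 2 genes were added into 1 row, also decided after seeing the data, the log2 fold change was -0.0024 ± 0.438 (SE) in wt against *aal1∆* and 0.21 ± 0.438 in *aal1-pOE* against *aal1∆*.

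**Figure D5:**
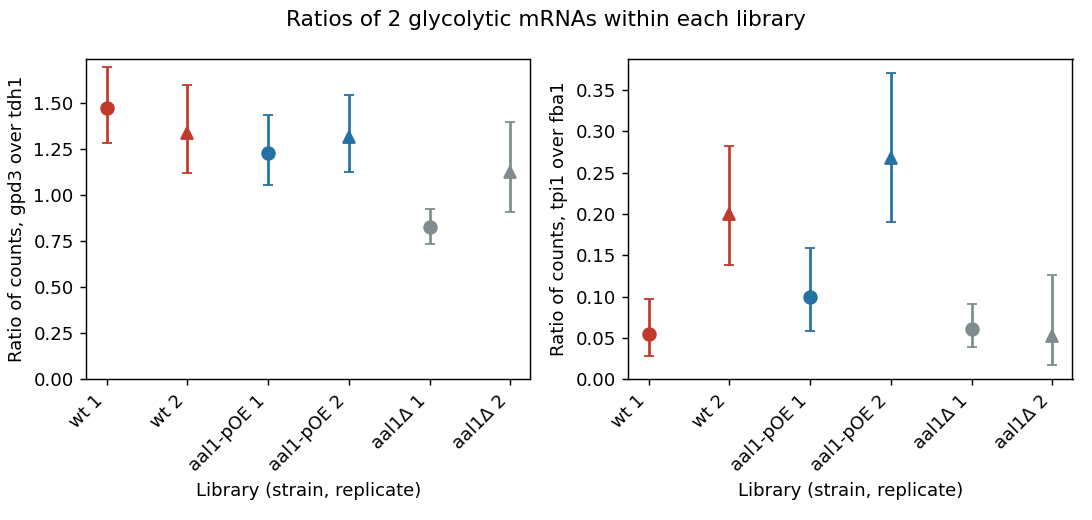
Ratios of counts of *gpd3* over *tdh1* (left) and of *tpi1* over *fba1* (right) within each library, with exact 95% intervals for counting error. The left ratio is below 1 only in *aal1∆* replicate 1 (0.823), and the right ratio is highest in replicate 2 of wt (0.200) and of *aal1-pOE* (0.268).

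*pgk1* (SPBC14F5.04c, chrII:4157821-4159461, minus strand, 1 exon), of the first ATP-yielding step, had 2485 and 4063 in wt, 3471 and 3814 in *aal1-pOE*, against 2806 and 2376 in *aal1∆*. Both *aal1-pOE* libraries were above both *aal1∆* libraries, whereas wt replicate 1 lay between these last 2. The log2 fold change was 0.49 ± 0.392 (SE) in *aal1-pOE* against *aal1∆*, with an interval of 0.816-fold to 2.41-fold and an adjusted p of 0.9999 from edgeR, and 0.33 ± 0.391 in wt against *aal1∆*.

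*gpm1* (SPAC26F1.06, chrI:5173864-5174654, minus strand, 1 exon), the shortest transcript of the 10 with 791 nucleotides, had 310 and 846 in wt, 640 and 731 in *aal1-pOE*, against 435 and 799 in *aal1∆*. On the TMM scale replicate 2 was the higher in every strain, most so in wt, and the strains overlapped. The log2 fold changes against *aal1∆* were -0.08 ± 0.477 (SE) for wt and 0.19 ± 0.474 for *aal1-pOE*, the former moving between -0.95 and 0.58 when single libraries were left out.

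*eno101* (SPBC1815.01, chrII:2201196-2202652, plus strand, 1 exon) had 2210 and 3583 in wt, 2559 and 3508 in *aal1-pOE*, against 2279 and 2887 in *aal1∆*. The strains overlapped, and the log2 fold changes against *aal1∆* were 0.17 ± 0.391 (SE) for wt and 0.24 ± 0.391 for *aal1-pOE*. *pyk1* (SPAC4H3.10c, chrI:3844743-3846675, minus strand, 1 exon) had 1548 and 1791 in wt, 1657 and 2689 in *aal1-pOE*, against 1774 and 2221 in *aal1∆*. Here too the strains overlapped, with log2 fold changes of -0.25 ± 0.387 (SE) for wt and 0.12 ± 0.386 for *aal1-pOE* against *aal1∆*.

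On the TMM scale, 3 of the 10 mRNAs did not overlap between wt and *aal1∆* (*gpd3* higher, *pfk1* and *tdh1* lower), beside 30.2% of all tested RNAs (14.2% higher and 16% lower). Between *aal1-pOE* and *aal1∆* 3 did not (*tpi1* and *pgk1* higher, *pfk1* lower), beside 34.2% (17.1% higher and 17.2% lower), and between *aal1-pOE* and wt 2 did not (*pfk1* and *tdh1* higher), beside 34.2% (17.8% higher and 16.5% lower). Which mRNAs these were depended on the scaling. With CPM scaled by library size alone, it was *pgk1* (higher) in wt against *aal1∆*, *tpi1* and *pgk1* (higher) and *pfk1*, *fba1* and *tdh1* (lower) in *aal1-pOE* against *aal1∆*, and *fba1* (lower) in *aal1-pOE* against wt. Over all tested RNAs that scale gave shares of 26.2%, 34.6% and 30.5%.

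Replicates of one strain differed by a median of 0.47 on the log2 scale over the 10 mRNAs in wt, 0.41 in *aal1-pOE* and 0.33 in *aal1∆*. The 193 tested RNAs with a mean of 50 counts or more per library had medians of 0.35, 0.43 and 0.38. Standard errors of the log2 fold changes were 0.382 to 0.697 for the 10 mRNAs. Over all tested RNAs their median was 0.88 in each comparison. The smaller errors do not show closer replicates, since edgeR rests the spread of one RNA largely on that of all tested RNAs. That median is also not matched for counts, as only 193 of the 1329 tested RNAs had a mean of 50 counts or more. Among the 10 mRNAs, *tpi1*, with the fewest counts, had the largest error. With these errors, the upper 95% bounds in wt against *aal1∆* were 1.40-fold to 2.19-fold for the 9 mRNAs other than *tpi1*. The bounds depended on which RNAs were fitted together. Without rRNA, mitochondrially encoded genes, *aal1* and SPNCRNA.401, the standard errors in that comparison were 0.228 for *gpd3*, 0.245 for *tdh1* and 0.255 for *pgk1*. Those of *gpm1*, *pgi1* and *tpi1* were then larger than in the main fit, at 0.496, 0.475 and 0.704. A lack of a call does not show equal recovery.

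Several of the genes overlap others in the annotation. *gpm1* shares 30 nucleotides with *mug106* on the same strand, which had 0 to 4 counts per library. *noc4* and *uba2*, which lie opposite the ends of *pgi1* and *pfk1*, had 0 to 2 counts, and the lncRNA SPNCRNA.1648 opposite *pgi1* had 0. The lncRNA SPNCRNA.6456 lies opposite all 1641 nucleotides of *pgk1* and is not a row of the count table, so its reads were not analysed here. The same holds for SPNCRNA.3712 opposite 1175 nucleotides of *pyk1* and SPNCRNA.4780 opposite 643 of *gpd3*. It also holds for SPNCRNA.5585 and SPNCRNA.5586 opposite 759 and 249 nucleotides of *pfk1*, SPNCRNA.5300 opposite 101 of *fba1* and SPNCRNA.4334 opposite 5 of *gpm1*.

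Genes around the pathway were taken from 8 lists with 30 genes, 27 of which could be tested. Of these 27, 0 were called in wt against *aal1∆*, 0 in *aal1-pOE* against wt and 1 in *aal1-pOE* against *aal1∆* by edgeR, beside 0.15%, 0.226% and 0.376% of all tested RNAs. At an unadjusted p under 0.05 there were 2 of 27 (7.41%), 3 (11.11%) and 5 (18.5%), beside 2.48%, 4.21% and 5.42% of all tested RNAs. The latter shares are not matched to the lists for counts, so no excess can be read from them. In *aal1-pOE* against *aal1∆* the genes at that unadjusted p went in both directions, with *dld1* lower and *gnd1* higher. At the entry of the pathway, the hexokinase mRNA *hxk2* had 100 to 321 counts per library and a log2 fold change of 0.41 ± 0.382 (SE) in wt against *aal1∆*. *hxk1* had 10 to 42 counts, and *fbp1*, which encodes the gluconeogenic fructose-1,6-bisphosphatase, had 45 to 254, with log2 fold changes of -0.62 ± 0.640 and 0.11 ± 0.391. The second enolase gene, *eno102*, had 83 to 367 counts, with 0.06 ± 0.392 in wt and -0.57 ± 0.397 in *aal1-pOE* against *aal1∆*.

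Below pyruvate, *pdc201*, of the pyruvate decarboxylase family of fermentation, had 787 to 3958 counts and a log2 fold change of -0.11 ± 0.525 (SE) in wt and -0.14 ± 0.525 in *aal1-pOE* against *aal1∆*. *pdc101* had 95 to 225 counts and *adh1*, the alcohol dehydrogenase mRNA, 61 to 207, with log2 fold changes in *aal1-pOE* against *aal1∆* of 0.12 ± 0.390 and 0.09 ± 0.398. The call was *pdc202*, of the same family as *pdc201*. It had 48 and 33 counts in wt, 6 and 18 in *aal1-pOE*, against 255 and 20 in *aal1∆*. Scaled to library totals this is 536 and 381 CPM in wt, 65.3 and 219 in *aal1-pOE*, against 1455 and 492 in *aal1∆*, so that *aal1∆* replicate 1 stood high on this scale too.

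*pdc202* fell by 2.66 on the log2 scale ± 0.562 (SE) in *aal1-pOE* against *aal1∆*, with an adjusted p of 0.00373 from edgeR. It was not called without *aal1∆* replicate 1 (log2 fold change -1.42, adjusted p of 0.595), without *aal1-pOE* replicate 1 (-1.91, adjusted p of 0.661) or by DESeq2 (-2.56, adjusted p of 0.284), the first 2 by edgeR. Over all its alternatives the adjusted p ran from 1.90e-05 to 0.661. *pdc102* had 0 counts in every library.

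None of the other lists had a call in any of the comparisons. Of the pyruvate dehydrogenase complex, *dld1* had a log2 fold change of -1.22 ± 0.515 (SE) in *aal1-pOE* against *aal1∆*, *lat1* of 1.05 ± 0.712 and *pda1* of -2.11 ± 1.05, the last on 1 to 21 counts a library. Of the citrate cycle, *aco1*, which encodes aconitase, had 93 to 602 counts and a log2 fold change of -0.36 ± 0.389, *kgd1* of 0.15 ± 0.396 and *cit1*, which encodes citrate synthase, of -0.56 ± 0.409. Of the pentose phosphate path, *tkt1*, which encodes transketolase, was at -0.14 ± 0.457, *tal1* at -0.12 ± 0.635 and *gnd1* at 1.28 ± 0.623. The glycerol-3-phosphate dehydrogenase mRNA *gpd1* had -0.70 ± 0.450 and *gpd2* had too few counts, 0 to 11, to be tested. For trehalose synthesis, *tps1* was at -0.44 ± 0.581 and *tpp1* at 1.20 ± 0.739.

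The mRNAs whose course over the 6 libraries was most like that of the summed glycolytic mRNAs were sought among 184 other RNAs with a mean of 50 counts or more. Likeness was the root mean square distance of centred log2 CPM, whose median over the 184 was 0.410. The nearest were *tef103* (0.117), which encodes the translation elongation factor eEF1A, *hsp9* (0.1199), which encodes a heat shock protein, *atd1* (0.133), which encodes an aldehyde dehydrogenase, *oga1* (0.144) and *SPBPB21E7.11* (0.157). Of the 10 mRNAs themselves, *fba1* was nearest to their sum at 0.122, followed by *eno101* at 0.129, while *gpm1* at 0.410 and *tpi1* at 0.900 were farthest. Since the 10 make up the sum, these last distances are a description of how evenly they moved.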

How the data were processed

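RNA of *aal1* pull-downs was measured in 6 libraries. The submitters' processing notes name HISAT2 2.2.1, SAMtools 1.14, HTSeq 0.12.3 and edgeR 3.32.1. The authors trimmed and mapped 75-base read pairs and deposited raw counts per gene. HTSeq's default leaves out reads that fit several loci, and the methods set no option against it. The mapping and counting commands name opposite strand modes, and the strand counted was taken to be that of the gene. The genome build was not given in the sources used here, and 6852 of 7001 identifiers matched ASM294v3 (RefSeq), which gave coordinates and lengths.

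Counts were tested with edgeR 4.0.16 in R 4.3.3 (TMM, filterByExpr, glmQLFit, glmQLFTest, 1 fit of all libraries by strain, Benjamini-Hochberg over 1329 RNAs, threshold 0.05), after a check on simulated counts. The simulation used edgeR's own fitted spread and changes larger than any of the members'. It therefore cannot show how the test behaves at changes of their size. DESeq2 1.42.0 was an alternative. Each library counted as 1 replicate, since replicates differed by more than sampling noise (a chi-square per degree of freedom of 9.92 to 12.7). The members, lists and tests were chosen with earlier results of these data known. Named genes are the 10 members, *aal1*, up to 3 genes with the most counts per list, called list genes, and the 5 RNAs nearest in profile. *pdc102*, the overlapping genes and the ratio of *gpd3* to *tdh1* were added after seeing the data. Alternatives were other normalisations, filters, tests, denominators and lengths, the compared strains alone, a replicate block and each library left out.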

Additional observations from a re-analysis of the deposited data

How the results depend on the processing

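No member was called under any alternative in any of the 3 comparisons, with adjusted p from 0.401 upwards in edgeR and DESeq2. With library sizes alone, the median over all tested RNAs shifted to -0.14 in *aal1-pOE* against *aal1∆* and to -0.16 in *aal1-pOE* against wt, and the members' medians were 0.02 and -0.0060, or 0.16 and 0.15 above those. That setting also turned *gpm1* (-0.0013), *pyk1* (-0.081) and *fba1* (-0.14) in *aal1-pOE* against *aal1∆*, and *pgi1* (-0.12), *pfk1* (-0.13), *eno101* (-0.059) and *gpd3* (-0.062) in *aal1-pOE* against wt. *fba1* turned without a filter (-0.0061), and *tdh1* turned with RLE size factors (0.034), DESeq2 (0.034) and without rRNA, mitochondrially encoded genes, *aal1* and SPNCRNA.401 (0.016), all in *aal1-pOE* against *aal1∆*. Without those RNAs, *pgk1* had an unadjusted p of 0.0468 and an adjusted p of 0.935 from edgeR in the same comparison. Summing *tdh1* and *gpd3* gave -0.0024 in wt against *aal1∆*. The causes were not tested. With CPM scaled by library size alone, 1, 5 and 1 of the members did not overlap in the 3 comparisons, in place of 3, 3 and 2. With nuclear mRNA as denominator, the summed share was 4.05% in wt, 4.33% in *aal1-pOE* and 3.80% in *aal1∆*, since rRNA and *aal1* no longer count.

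Without single libraries, the members' median ran from -0.25 to 0.44 in wt against *aal1∆*, from 0.05 to 0.47 in *aal1-pOE* against *aal1∆* and from -0.20 to 0.44 in *aal1-pOE* against wt. In wt against *aal1∆*, *gpm1* ran from -0.95 to 0.58, *pgk1* from -0.081 to 0.72, *eno101* from -0.22 to 0.56, *fba1* from -0.27 to 0.39, *tpi1* from -0.37 to 2.15 and *pgi1* from -0.012 to 0.68. In *aal1-pOE* against *aal1∆*, *tdh1* ran from -0.12 to 0.18, *pyk1* from -0.19 to 0.46, *fba1* from -0.11 to 0.23 and *gpm1* from -0.14 to 0.62. In *aal1-pOE* against wt, *gpm1* ran from -0.36 to 1.19, *pgk1* from -0.21 to 0.60, *pgi1* from -0.24 to 0.29, *pfk1* from -0.014 to 0.11, *eno101* from -0.30 to 0.51, *tpi1* from -0.69 to 2.14, *fba1* from -0.34 to 0.34 and *gpd3* from -0.051 to 0.32.

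Differences between replicates hardly correlated across strains over the 1329 tested RNAs (0.09 between wt and *aal1-pOE*, 0.05 between wt and *aal1∆* and -0.05 between *aal1-pOE* and *aal1∆*). Counting noise in RNAs with few counts lowers such correlations, so they cannot show whether replicate numbers paired the libraries. With the replicate block, 0 of 10 members were called, the medians were 0.08, 0.23 and 0.15, and *tpi1* was at 0.73 in wt and 1.27 in *aal1-pOE* against *aal1∆*. At the depth of the smallest library, 40653 counts, *tpi1* rested on 5 counts.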
